A study of Mus musculus with 7 samples.

Results

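The stretch described here is chromosome 9 from 90.0 to 95.0 Mb on the mouse build mm9, a region that holds the neighbouring genes Zic1 and Zic4. It was chosen from measured values: earlier results of these data had shown FRA2 and JUND reads there to lean towards one of the cell lines. Its members are all FRA2, JUND and SOX2 binding events whose listed position falls inside it. They number 133 of 137595 events, made up of 59 of 64579 FRA2 events, 40 of 46583 JUND events and 34 of 26433 SOX2 events. Because the difference between the lines chose the stretch, that difference is given as a description, with no test of the stretch and no support drawn from it.

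The events come from chromatin immunoprecipitation followed by sequencing (ChIP-seq) in mouse cell lines derived from the striatum at embryonic day 14, strain 129SvEv/CD1. STHdhQ7 carries the genotype HdhQ7/Q7 and STHdhQ111 the genotype HdhQ111/Q111, in which both copies of the huntingtin gene hold an expanded CAG repeat. They are called Q7 and Q111 below. Both were kept below 15 passages, grown at 33 °C and, to halt the cell cycle, shifted to 39 °C during the last 2 days. Both lines were profiled for FRA2 and JUND, and Q7 also for SOX2. Each line also has an IgG sample, but the control reads used below are not labelled with the library they come from. Each of these samples pools replicates 1 and 2, so a group is 1 value without replicate spread, and a difference between lines cannot be told apart from a difference between genotypes. The labelled striatal origin was not checked, since binding events carry no expression of marker genes.

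Summed over the listed events, FRA2 has 3340554 reads of Q7 and 3498922 of Q111, JUND has 1660158 and 1609483, and SOX2 has 1193914 of Q7. Read numbers below are the deposited reads of each event. Log2 ratios are Q111 over Q7 after setting the median over events present in both lines to 0, so a negative value means more reads in Q7, and folds are on the same scale. Intervals are 95% intervals for counting error only, and PCR reads are not independent molecules.

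FRA2 (gene Fosl2) and JUND are subunits of AP-1, the family of FOS and JUN proteins that bind DNA as dimers at a short palindrome and act largely at enhancers. SOX2 is an HMG-box factor that maintains neural progenitors. Zic1 and Zic4 encode zinc-finger transcription factors of the dorsal neural tube and cerebellum, stand head to head, and are known for the cerebellar malformation that follows the loss of both.

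In the RefSeq gene order of another build, GRCm38.p6, the pair is flanked on the low-coordinate side by Rasgrf1, Ctsh, Morf4l1, Adamts7 and Tbc1d2b. On the other side follow Plscr5, Plscr1, Plscr2, 1700057G04Rik and Plscr4, then Plod2, Dipk2a, Slc9a9 and Chst2. The Plscr genes encode phospholipid scramblases, Plod2 a lysyl hydroxylase that modifies collagen, and Slc9a9 an endosomal sodium/proton exchanger. An mm9 annotation was not used here, so events are given by position and are not assigned to these genes. The position of the Zic pair on mm9, near 91.3 Mb, is taken from the choice of the stretch and is known only to 0.1 Mb.

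The 250 bases before each gene start are shown because they are the sequences that give the region its name, with CpG dinucleotides in capitals. Both are RefSeq sequences of GRCm38.p6, 5′ to 3′ along the gene, and their coordinates cannot be set against the mm9 positions of the events. Zic1 lies on the minus strand (chr9:91365769-91366018) and Zic4 on the plus strand (chr9:91368722-91368971).
Zic1: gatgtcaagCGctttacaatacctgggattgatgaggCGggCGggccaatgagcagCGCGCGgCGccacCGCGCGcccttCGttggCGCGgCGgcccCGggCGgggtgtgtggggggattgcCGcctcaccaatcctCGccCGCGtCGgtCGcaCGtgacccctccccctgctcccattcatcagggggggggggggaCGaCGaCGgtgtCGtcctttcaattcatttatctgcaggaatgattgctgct
Zic4: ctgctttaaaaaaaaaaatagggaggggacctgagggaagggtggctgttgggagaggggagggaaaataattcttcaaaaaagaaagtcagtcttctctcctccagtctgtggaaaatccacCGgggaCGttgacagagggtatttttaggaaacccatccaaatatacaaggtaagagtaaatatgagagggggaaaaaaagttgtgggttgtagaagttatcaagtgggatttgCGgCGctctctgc
The Zic1 window holds 27 CpG dinucleotides at 66% G and C, and the Zic4 window holds 4 at 44.4%. Over 32851 promoter windows of the same length the medians were 6 CpG dinucleotides and 52.4%. The AP-1 motif TGANTCA, the related CRE motif TGACGTCA and the SOX motifs ACAATG and ACAAAG were searched on both strands. None of the 4 motifs occurs in these windows, against 6.75%, 1.55%, 10.7% and 16.5% of all promoter windows in the same order. This says only that these letters are not in these windows.

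Over the whole stretch, FRA2 and JUND events held fewer reads in Q111 than in Q7. Summed FRA2 reads were 2862.4 in Q7 and 1526.1 in Q111, a log2 ratio of -0.95 (-1.04 to -0.86), or 1.94-fold more in Q7 (1.82 to 2.06). Summed JUND reads were 1229.8 in Q7 and 710.6 in Q111, a log2 ratio of -0.86, or 1.82-fold more in Q7 (1.66 to 2). The median event had a log2 ratio of -1.03 for FRA2 and -1.03 for JUND, while the medians over all events of the tables were 0.00 and -0.13. In the stretch 47 of 59 FRA2 events and 32 of 40 JUND events lay below 0.

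An event was called when its exact binomial test, adjusted over all events of its table, gave p below 0.05 and the fold was at least 2. Of the FRA2 events, 29 were called higher in Q7 and 6 higher in Q111, and 24 were not called. The background over all FRA2 events is 21.3% called higher in Q7 and 23.3% called higher in Q111. Among JUND events 19 were called higher in Q7, 4 higher in Q111 and 17 not called, with a background of 23.3% and 17.4%. Nothing is read from these shares, since the same contrast chose the stretch.

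The called events differ in level as well as in direction. FRA2 events called higher in Q7 ran from 21 to 152 reads in Q7 (median 42) and from 1 to 53 in Q111 (median 6). The 6 FRA2 events called higher in Q111 ran from 4 to 29 reads in Q7 (median 9) and from 22 to 80 in Q111 (median 36). For JUND the 19 events called higher in Q7 had medians of 31 reads in Q7 and 6 in Q111. The 4 called higher in Q111 held 2 to 4 reads in Q7 and 21 to 27 in Q111, so these rest on low reads. Uncalled events were not the weakest: their median total was 65 reads for FRA2 and 56 for JUND, against 53 and 40 for those called higher in Q7.

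The deposited present marks, which record in which line the event caller counted an event, lean the same way. FRA2 events were marked present in Q7 alone at 31 positions (background 26.7%), in Q111 alone at 9 (25.7%) and in both lines at 19 (47.6%). JUND events were marked in Q7 alone at 26 positions (38.4%), in Q111 alone at 5 (24.4%) and in both at 9 (37.1%). These marks come from the same reads and are no second measurement.

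**Figure D1:**
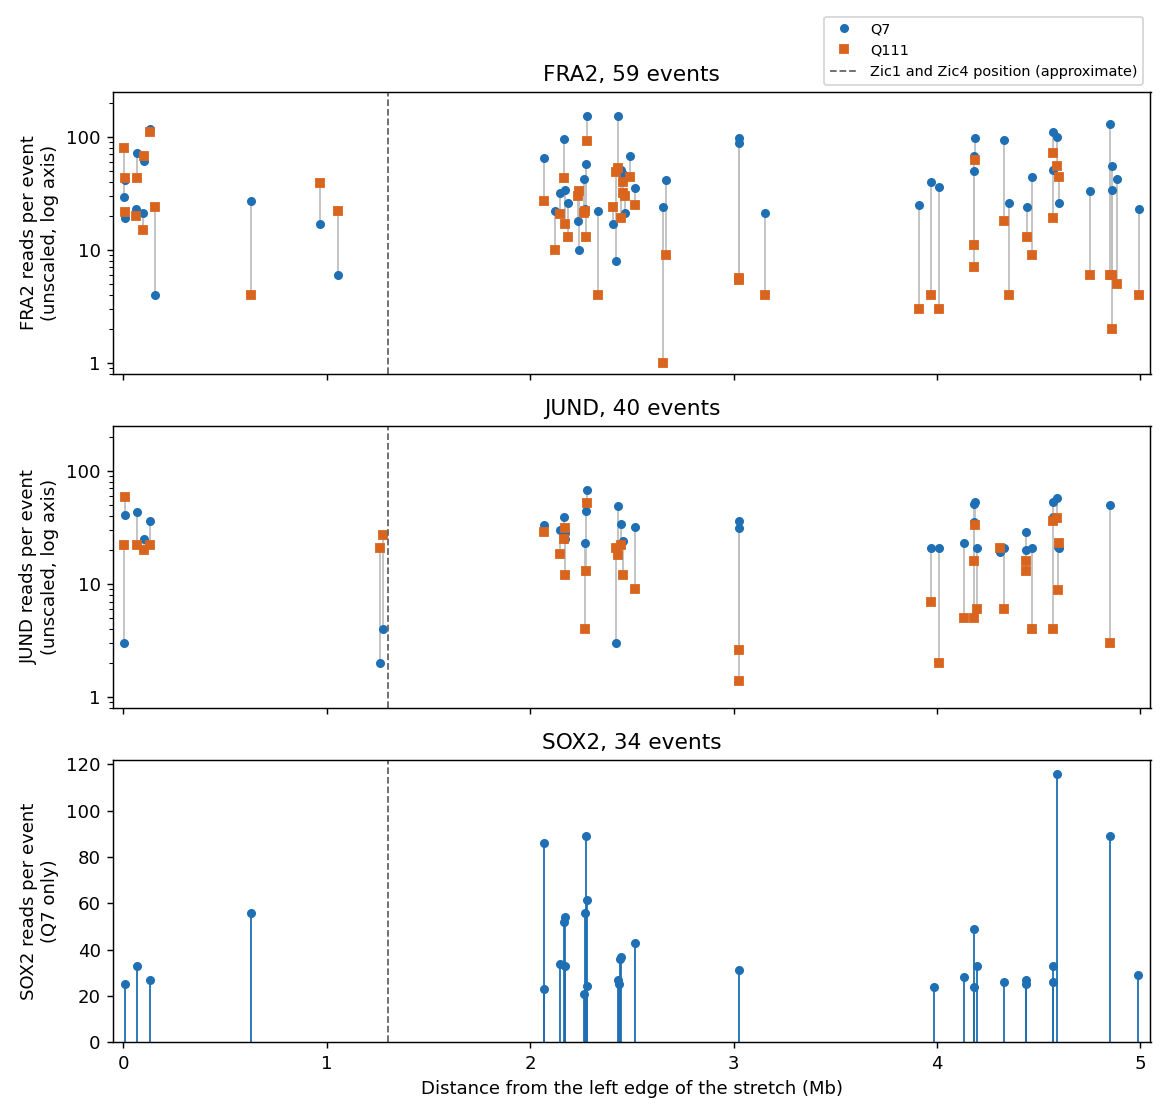
Deposited reads of each FRA2 and JUND event (log axis, unscaled) in Q7 (circles) and Q111 (squares), joined by a line, and reads of SOX2 events in Q7 (linear axis), by distance from the left edge of the stretch in Mb. The dashed line is the approximate Zic position, and in the right 2.5 Mb the Q111 values lie below the Q7 values at 25 of 26 FRA2 and 19 of 21 JUND events.

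Closest to the genes that name the stretch, the few listed values went the other way. Within 100 kb of the Zic position there was no FRA2 event and no SOX2 event, and the only members there were 2 JUND events. The one at 91260214 held 2 reads in Q7 and 21 in Q111, 8.18-fold higher in Q111 (2.44 to 87.9). Its neighbour at 91276532 held 4 reads in Q7 and 27 in Q111, 5.81-fold higher (2.24 to 25.3). The Zic position is known too coarsely to give their distance from the genes or the side on which they lie. Both were called higher in Q111 and marked present in Q111 alone. Control reads at them were 2.3 and 3.5 in Q7 and 1.1 and 4.3 in Q111. So the name fits the stretch by position only. Since both events were counted in Q111 alone, few reads in Q7 come with their listing, and nothing is read from their direction. Both events fall out of the test when at least 40 reads are required.

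The nearest FRA2 event to the left of the Zic position, at 91054352, held 6 reads in Q7 and 22 in Q111. On the right the nearest was 92069327, with 65 reads in Q7 and 27 in Q111. Between them no FRA2 event was listed over 1014975 bp, a gap matched or exceeded by 258 of 64558 gaps between neighbouring FRA2 events genome-wide (median gap 11228 bp). The Zic position also sits in a SOX2 gap of 1442110 bp, from 90626415 to 92068525, a length that 248 of 26412 SOX2 gaps reach.

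The stretch is sparse as a whole, least so for SOX2. It held 11.8 FRA2 events per Mb, against 25.5 over chromosome 9 and 25.2 over the genome. JUND stood at 8 per Mb against 17.2 and 18.2, and SOX2 at 6.8 against 10.1 and 10.3. These densities run from the first to the last listed event of a chromosome.

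Along the stretch the ratio was not even. In the left 2.5 Mb, from 90.0 to 92.5 Mb, the 33 FRA2 events summed to 1446.4 reads in Q7 and 1123.1 in Q111, a log2 ratio of -0.41 (-0.52 to -0.30). Of them 9 were called higher in Q7 (27.3%, background 21.3%), 6 higher in Q111 (18.2%, background 23.3%) and 18 not called. The 19 JUND events there summed to 553.8 and 450.6 reads, a log2 ratio of -0.37 (-0.55 to -0.19). Of these JUND events 5 were called higher in Q7 (26.3%, background 23.3%) and 4 higher in Q111 (21.1%, background 17.4%).

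The right 2.5 Mb, from 92.5 to 95.0 Mb, carried most of the lean. Its 26 FRA2 events summed to 1416 reads in Q7 and 403 in Q111, a log2 ratio of -1.86 (-2.02 to -1.70), or 3.63-fold more in Q7 (3.25 to 4.06). Among them 25 of 26 lay below 0, 20 were called higher in Q7 (background 21.3%) and none higher in Q111 (background 23.3%). The median event held 41.5 reads in Q7 and 6 in Q111, and 21 events were marked present in Q7 alone, 5 in both lines and none in Q111 alone. JUND followed with 676 reads in Q7 and 260 in Q111 over 21 events, a log2 ratio of -1.45 (-1.66 to -1.24). Of these JUND events 19 of 21 lay below 0, 14 were called higher in Q7 (background 23.3%) and none higher in Q111 (background 17.4%). The split at the middle of the stretch was made after the bins had been seen, and it gets no test.

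**Figure D2:**
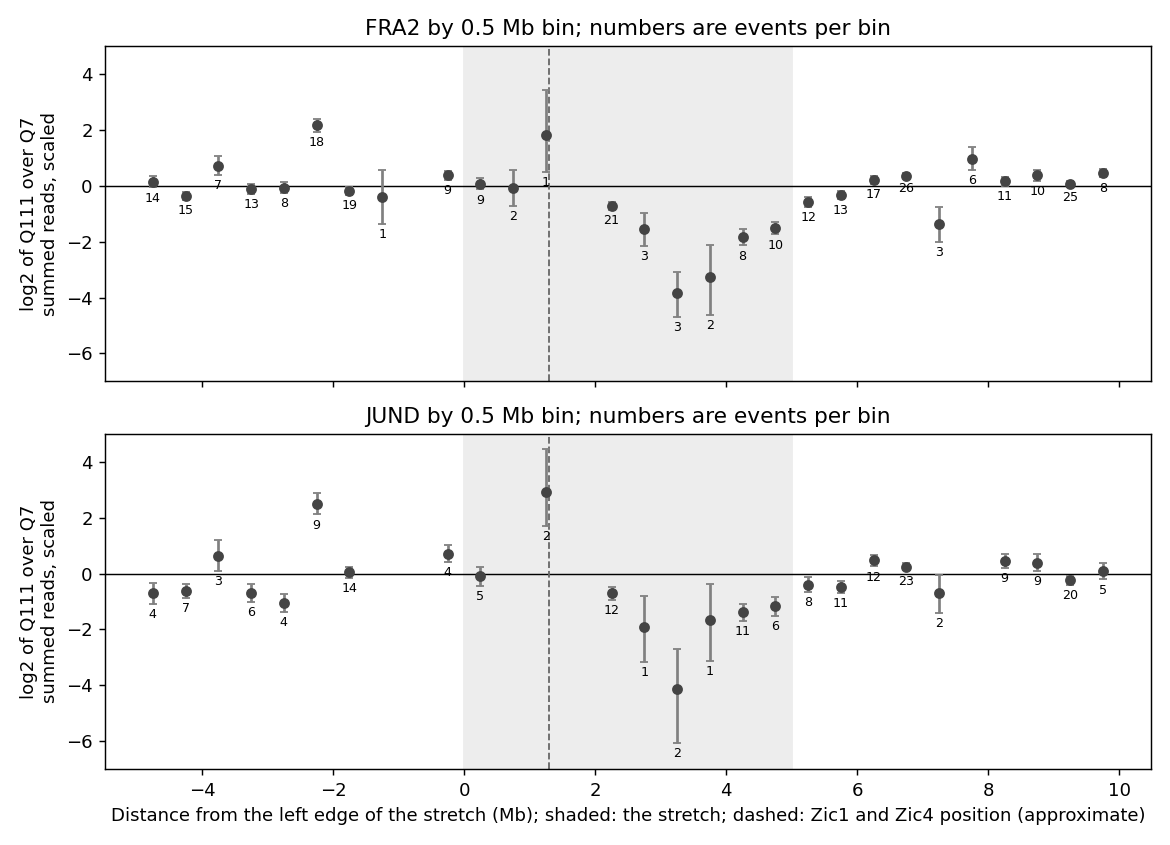
Log2 ratio (Q111 over Q7) of summed FRA2 and JUND reads in bins of 0.5 Mb, by distance from the left edge of the stretch in Mb. Bars are 95% counting intervals, small numbers are events per bin, the stretch is shaded and the dashed line is the approximate Zic position. The lowest values, -3.84 for FRA2 and -4.14 for JUND, fall in the bin from 93.0 to 93.5 Mb.

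In bins of 0.5 Mb, 7 of 9 filled bins held more FRA2 reads in Q7 and 7 of 8 filled bins more JUND reads in Q7. With bins of 1 Mb the counts were 3 of 5 and 4 of 5. The first bin, from 90.0 to 90.5 Mb, stood near 0, with log2 ratios of 0.07 over 9 FRA2 events and -0.10 over 5 JUND events. From 90.5 to 91.0 Mb FRA2 stood at -0.08 over 2 events, with no JUND event. From 91.0 to 91.5 Mb, the bin of the Zic position, both were highest, at 1.83 for FRA2 (1 event) and 2.93 for JUND (2 events). The bin from 91.5 to 92.0 Mb held no event of any protein. From 92.0 to 92.5 Mb the events crowd, with 21 FRA2, 12 JUND and 15 SOX2 events, and both ratios stood at -0.71. Farther right FRA2 stood at -1.56 from 92.5 Mb (3 events), -3.84 from 93.0 Mb (3 events), -3.26 from 93.5 Mb (2 events), -1.84 from 94.0 Mb (8 events) and -1.51 from 94.5 Mb (10 events). JUND in the same bins stood at -1.90, -4.14, -1.66, -1.38 and -1.17, over 1, 2, 1, 11 and 6 events. The bins at -3.84, -3.26 and -4.14 rest on 2 or 3 events each. In the bin from 93.0 to 93.5 Mb control reads went the other way, at 0.40 per FRA2 event in Q7 and 2.07 in Q111.

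Of the 5 FRA2 events with the most reads, 4 leaned towards Q7 with a fold interval above 1, and 1 did not. The FRA2 event with the most reads, at 92279430, held 153.9 reads in Q7 and 90.9 in Q111, 1.74-fold more in Q7 (1.34 to 2.29) and not called. At 90130396, in the first bin, FRA2 held 118 and 109 reads, and the interval of the fold, 0.854 to 1.46, includes 1. The only one of the 5 called was 92432752, with 152 reads in Q7 and 53 in Q111, 2.94-fold more in Q7 (2.15 to 4.13). The remaining members of that group, 94569214 with 183 reads over both lines and 94187170 with 97 in Q7 and 62 in Q111, lay in the right 2.5 Mb, were not called, and stood 1.59-fold and 1.61-fold higher in Q7.

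Among the 5 JUND events with the most reads, 4 held more reads in Q7. At 92279432 JUND held 68 reads in Q7 and 52 in Q111, and at 94592446 it held 57.9 and 38.1. Positions 94569229 and 94187176 held 53 and 36 reads and 53 and 33 reads. At 90009638 the order turned, with 41 reads in Q7 and 59 in Q111. None of these 5 was called.

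The members farthest towards Q7 were instead events close to empty in Q111. FRA2 at 94851335 held 129 reads in Q7 and 6 in Q111, 20.6-fold more (9.92 to 61.6). The JUND event beside it, at 94851311, held 50 and 3 reads, 15.2-fold more (5.66 to 87.8), and SOX2 was listed at 94851268 with 89 reads in Q7. A second such site lay in the bin from 93.0 to 93.5 Mb, where each AP-1 protein had a close pair of events. FRA2 held 98.2 and 5.4 reads at 93026956 and 88.8 and 5.6 reads at 93026631, which are 325 bp apart. JUND held 31 and 2.6 reads at 93026916 and 36 and 1.4 reads at 93026643. The fractional values show that the event caller split reads between neighbours, so members of such a pair are not separate measurements. FRA2 at 94860368 held 55 reads in Q7 and 2 in Q111, 22.9-fold more with a wide interval of 7.50 to 240.3. At 94182603 FRA2 held 68 and 7 reads and JUND, at 94182589, 35 and 5.

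Between these nearly emptied sites stood events that kept reads in both lines. FRA2 at 94182603 and at 94187170 lie in the same bin, and the log2 ratios were -3.24 and -0.69. In the last bin the neighbouring FRA2 events at 94569214 and 94570908 stood at -0.67 and -1.45. The lean is thus spread over many events of the right 2.5 Mb but uneven from one event to the next.

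Among the members farthest towards Q111, FRA2 at 92424403 held 8 reads in Q7 and 49 in Q111, 5.64-fold higher in Q111 (2.79 to 14.5). It lies inside the crowded bin from 92.0 to 92.5 Mb. The next FRA2 event on the right, 92432752, was called higher in Q7. On the left the next, 92406691, held 17 reads in Q7 and 24 in Q111 and was not called. FRA2 at 90157607 held 4 and 24 reads, and at 90002002, close to the left edge, 29 and 80. JUND at 90001971, beside the latter, held 3 reads in Q7 and 22 in Q111.

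Event by event, FRA2 and JUND mostly shared their direction. In the stretch 29 FRA2 and JUND events were each other's nearest within 100 bp, at a median distance of 12 bp and at most 40 bp. Their log2 ratios had the same sign at 27 of 29 pairs (93.1%), against 84.8% of 35176 pairs in the genome. At 13 pairs both were called higher in Q7, at 2 pairs both higher in Q111, and at none were the calls opposite. Over all pairs these shares were 17.4%, 15.1% and 0.0114%, so opposite calls are rare everywhere. Across the 29 pairs Pearson's r was 0.914 and Spearman's rho 0.864, as a description, and over all pairs they were 0.891 and 0.894. The stretch was chosen for the lean of both proteins, which bears on these counts, and the points share their genomic sites and the cells, and neighbouring sites are not independent.

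Whether JUND changed by another amount than FRA2 at a pair is a contrast that did not choose the stretch, and its test was the exact hypergeometric one, on the 4 read numbers of a pair, with adjustment over all pairs. None of the 29 pairs passed, the lowest adjusted p being 0.544, while 0.216% of all pairs passed (76 of 35176). At an unadjusted p below 0.05 there were 2 pairs, and 2 also with the other form of the two-sided p. FRA2 at 94570908 held 51 reads in Q7 and 19 in Q111, against 39 and 4 for JUND at 94570898, the pair with the lowest unadjusted exact p of 0.0352. At the other, FRA2 at 92069327 held 65 and 27 reads while JUND at 92069336 held 33 and 29. Over the 29 pairs JUND reads in Q111 ran down to 1.4, and a p above the threshold does not show that the proteins changed by the same amount.

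**Figure D3:**
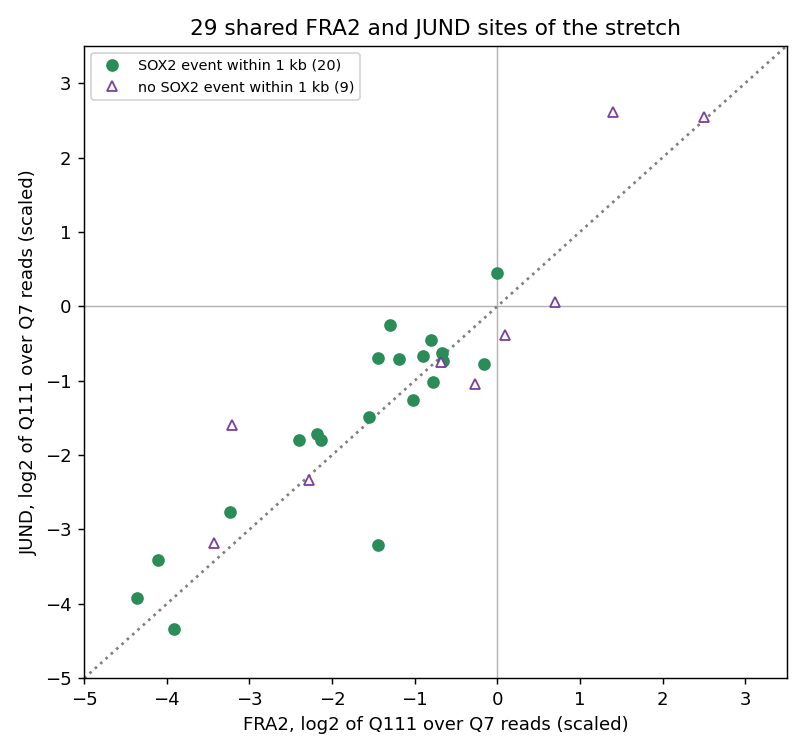
JUND against FRA2 log2 ratio (Q111 over Q7) for each of the 29 pairs of events within 100 bp, each point 1 pair, filled where a SOX2 event lies within 1 kb, with a dotted line of equal ratios. Of these pairs 27 have the same sign for both proteins, and the farthest towards Q7 on the FRA2 axis stands at -4.36 for FRA2 and -3.92 for JUND.

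SOX2 was mapped in Q7 alone, and its reads did not choose the stretch, though SOX2 sites are tied to the contrast that did, as given below. Its 34 events had a median of 33 reads (21 to 116), and the median over all SOX2 events was also 33. The most reads were at 94592413 (116), 92273010 (89), 94851268 (89), 92069264 (86) and 92279465 (61.6). These were followed by 90626415 and 92269652 with 56 reads each, 92169445 with 54, 92168208 with 52 and 94184518 with 49. Of the 34 events 15 lay between 92.0 and 92.5 Mb and none between 91.0 and 92.0 Mb.

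SOX2 shared its sites with AP-1 about as often as elsewhere. An AP-1 event (FRA2 or JUND) was found within 100 bp at 23 of 34 SOX2 events (67.6%, Wilson interval 50.8 to 80.9), against 69.9% of all SOX2 events. Both proteins lay that close at 18 of 34 (52.9%, against 48.5%). Within 1 kb the share was 29 of 34 (85.3%, against 86.4%). The interval for the 100 bp share includes the value over the whole table.

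Counted from the AP-1 side, more members had SOX2 nearby than over the tables. A SOX2 event lay within 100 bp of 20 of 59 FRA2 events (33.9%, against 23.6%) and of 21 of 40 JUND events (52.5%, against 35.3%). Within 1 kb the counts were 24 of 59 (40.7%, against 35.7%) and 28 of 40 (70.0%, against 50.3%). With a limit of 50 bp the FRA2 count fell to 13 (22.0%, against 15.9%) and the JUND count to 14 (35%, against 24.1%). Whether these shares depart from the tables was not tested. Over the tables, 54.1% of FRA2 events called higher in Q7 had a SOX2 event within 1 kb, against 7.77% of those called higher in Q111. For JUND the shares were 70.0% and 13.9%. The choice of the stretch for its lean towards Q7 therefore bears on the shares with SOX2 nearby.

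AP-1 events beside SOX2 nearly all leaned towards Q7, and the difference from events without SOX2 was not tested. Of the 24 FRA2 events with SOX2 within 1 kb, 23 lay below 0, with a median log2 ratio of -1.25 (all such FRA2 events, -0.50), and 15 were called higher in Q7 and none higher in Q111 (background 32.3% and 5.07% of all such events). The 35 FRA2 events without SOX2 had a median of -0.69 (all such events, 0.42), with 24 below 0, 14 called higher in Q7 and 6 higher in Q111 (15.2% and 33.4%). For JUND 26 of 28 events with SOX2 within 1 kb lay below 0, at a median of -1.27 (all, -0.50), with 16 called higher in Q7 and none higher in Q111 (32.4% and 4.81%). The 12 without SOX2 had a median of -0.17 (all, 0.34), with 3 called higher in Q7 and 4 higher in Q111 (14% and 30.1%). The split by SOX2 is thus present over the whole tables. Every FRA2 and JUND event of the stretch called higher in Q111 thus had no SOX2 event within 1 kb. Over the tables the same held for most: 7.77% of FRA2 events and 13.9% of JUND events called higher in Q111 had one. SOX2 was mapped only in Q7, so its events could be placed only where Q7 has them.

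Control reads, which the deposited tables give per event and line, leaned less than the immunoprecipitated reads. At the FRA2 events of the stretch they averaged 3.16 per event in Q7 and 3.81 in Q111, a log2 ratio of 0.27, against 0.41 over all FRA2 events. For JUND events the averages were 3.22 and 4.83, a log2 ratio of 0.59, against 0.73 over all JUND events. Set against all events, control reads of the stretch thus also lay towards Q7, by -0.14 and -0.15 on the log2 scale. In the right 2.5 Mb, where the lean was greatest, control reads at FRA2 events were 3.28 in Q7 and 3.26 in Q111 (log2 ratio -0.01), and at JUND events 3.42 and 4.16 (0.28). Relative to all events these are -0.42 and -0.45, the same direction as the immunoprecipitated reads there, at -1.86 and -1.45, and smaller. In the whole stretch 29 of 40 JUND events lay within 100 bp of a FRA2 event. Control reads at FRA2 and at JUND events thus come largely from the same sites and are not separate measurements. In the left 2.5 Mb the control log2 ratios were 0.47 at FRA2 events and 0.90 at JUND events. No event reached 40 control reads, and the highest value was 19.6.

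Control reads therefore differ between the left and right 2.5 Mb, by less than the immunoprecipitated reads and on few reads per event. At FRA2 events this difference comes largely from the first bin, with 2.43 control reads per FRA2 event in Q7 and 6.89 in Q111. In the bin from 92.0 to 92.5 Mb, which holds most FRA2 events of the left 2.5 Mb, they were 3.6 and 3.58. JUND control reads in the first bin were 2.08 per event in Q7 and 7.96 in Q111. From 92.0 to 92.5 Mb they were 3.38 and 5.04, a log2 ratio of 0.58, still above that of the right 2.5 Mb. A difference in DNA copy number between the lines was not tested other than by these control reads. Scaling by total control reads in place of the median shifts all events of a protein by the same amount. It moved the summed log2 ratio of the stretch to -1.32 for FRA2 and to -1.53 for JUND, farther towards Q7. The medians over all events moved with it, to -0.36 and -0.79, so this scaling tells nothing about copy number in the stretch.

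**Figure D4:**
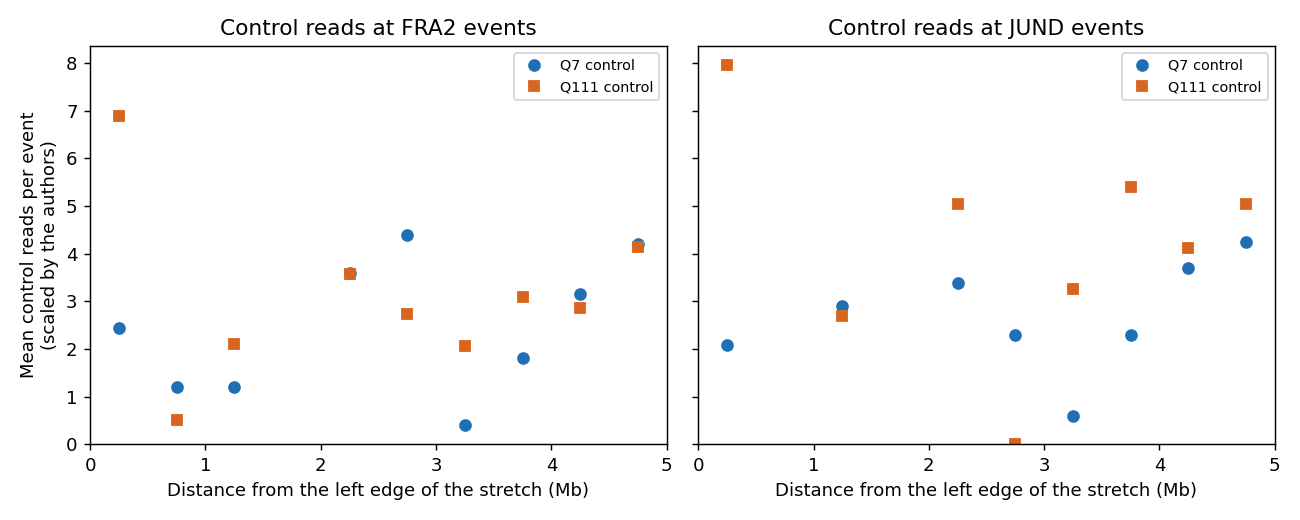
Mean control reads per event, as scaled by the authors, in Q7 (circles) and Q111 (squares) at FRA2 events and at JUND events of each 0.5 Mb bin, by distance from the left edge of the stretch in Mb. The first bin has the widest gap at FRA2 events, 2.43 against 6.89, and the mean was 3.28 in Q7 and 3.26 in Q111 at FRA2 events of the right 2.5 Mb.

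The FRA2 lean towards Q7 does not end at the right edge. Just inside it FRA2 held 42 and 5 reads at 94887637 and 23 and 4 at 94993427. Of the 5 nearest events outside, 4 were called higher in Q7: it held 67 and 13 reads at 95052420, 34 and 1 at 95061530, 26 and 9 at 95218786 and 55 and 12 at 95231942. The exception, 95093703, held 49 and 34. The next bins stood at log2 ratios of -0.58 for FRA2 and -0.40 for JUND from 95.0 Mb and -0.34 and -0.47 from 95.5 Mb, and at 0.20 and 0.47 from 96.0 Mb. Event by event, JUND was mixed. Its last events inside the stretch lie farther from the edge than those of FRA2. They held 50 and 3 reads at 94851311 and 21 and 23 at 94601950. The 5 nearest JUND events outside reach as far as 95414933. Of these, 95061587 (23 and 2 reads) was called higher in Q7, 95089373 (8 and 23) higher in Q111, and 3 were not called. For FRA2 the right edge is thus one of choice, not of the values, and summed JUND reads also lean towards Q7 in the next bins, up to 96.0 Mb.

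At the left edge the nearest events lean towards Q111 on both sides. FRA2 held 29 and 80 reads at 90002002 inside, and 8 and 40 at 89942887 and 6 and 27 at 89930818 outside. JUND held 3 and 22 reads at 90001971 inside and 3 and 30 at 89942879 outside. The 5 Mb before the stretch had summed log2 ratios of 0.20 for FRA2 (104 events) and 0.03 for JUND (51 events), and the 5 Mb after it 0.14 (131 events) and 0.06 (99 events). For the rest of chromosome 9 the values were -0.14 and -0.20.

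Set beside other 5 Mb windows of the genome with at least 50 events, the stretch had the FRA2 ratio farthest towards Q7, rank 1 of 434. The windows most like it were chromosome 17 from 75 to 80 Mb, at -0.80, and chromosome 1 from 5 to 10 Mb, at -0.75, and the median window stood at 0.01. For JUND it ranked 3 of 368, after chromosome 17 from 75 to 80 Mb at -1.06 and from 40 to 45 Mb at -0.88, with a median window of -0.10. It enters the JUND list although its 40 events are below the minimum of 50. These ranks describe the choice of the stretch. By control ratio, counted from the low end, it ranked 183 of 434 windows at FRA2 events and 152 of 368 at JUND events. Of all windows that held any event of the protein, 120 of 534 had fewer FRA2 events and 124 of 528 fewer JUND events. Fewer SOX2 events were held by 200 of the 534 windows with any FRA2 event.

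**Figure D5:**
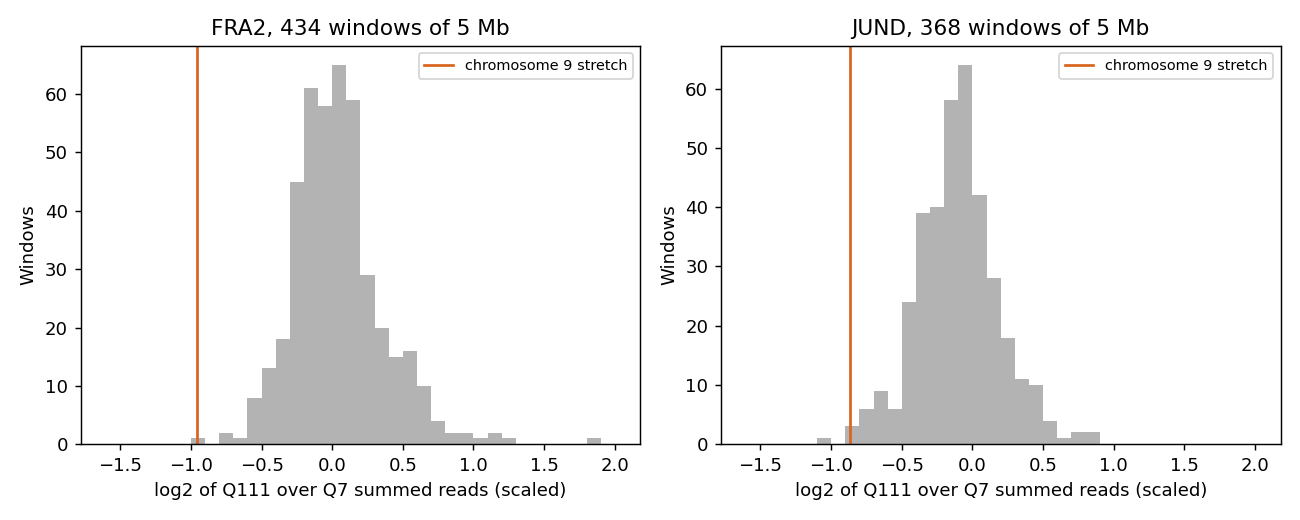
Number of 5 Mb windows of the genome by log2 ratio (Q111 over Q7) of summed reads, for FRA2 and for JUND, with the chromosome 9 stretch as a vertical line. The stretch lies at -0.95 for FRA2 and -0.86 for JUND, at the Q7 end of both distributions.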

How the data were processed

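ChIP-seq of FRA2, JUND and SOX2 in the lines STHdhQ7 and STHdhQ111 was analysed from the deposited tables of binding events. Per the submitters' processing notes reads were aligned with Bowtie 0.12.7 to mm9. The deposited tables name GPS as event caller (version and settings: not given in the sources used here). IP values are the authors' expected counts, reads assigned to an event and in part fractional, and were rounded to whole reads before testing. Control values are a signal, control reads scaled by the authors, and the headers do not name the control library. The deposited q-value, as −log10, and the present marks were used as given. There were 22 further value columns not used here.

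The exact binomial test, two-sided with the p as 2 times the smaller tail, compared the lines at each event. It took the share expected for no difference from events marked present in both lines, whose median log2 ratio was 0.05 (FRA2) and 0.07 (JUND). Benjamini-Hochberg adjustment ran over all events of a table, each with at least 20 reads. A call needed adjusted p below 0.05 together with 2-fold or more, at a pseudocount of 0.5. Fold intervals are 95% Clopper-Pearson intervals, shares have Wilson intervals, and both cover counting error only. The tests compare pooled libraries, not genotypes. Pairs of mutually nearest FRA2 and JUND events within 100 bp were compared by the exact hypergeometric test.

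Named events are, per AP-1 protein, the 5 with the most reads, the 5 called whose fold interval lies farthest from 1 towards Q7 and the 3 towards Q111. To these come the events within 100 kb of the Zic position and the 10 SOX2 events with the most reads. The stretch, its members and these rules were chosen with earlier results of these data known. The pairs named by unadjusted p, the neighbours in the last bin and the events beside named ones were picked after their values were seen. Alternatives changed the scaling, read minimum, q-value limit, assumed spread, distance limits, merging of events and form of the two-sided p, the last added after the data were seen. The scripts, in Python 3.11.15 with scipy 1.17.1, were tested on simulated data. Sequences and gene order are from RefSeq tables of GRCm38.p6.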

Additional observations from a re-analysis of the deposited data

How the results depend on the processing

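Each sample is a pool of replicates 1 and 2, so a replicate could not be left out. No paired analysis was possible because each group holds 1 pooled sample. Scaling by control reads moved the summed log2 ratio from -0.95 to -1.32 for FRA2 and from -0.86 to -1.53 for JUND, and JUND calls higher in Q7 from 19 to 30. Over all events that scaling shifts the median log2 ratio to -0.36 for FRA2 and -0.79 for JUND, and the share of calls that are higher in Q111 from 52.2% to 35.0% and from 42.8% to 16.8%. JUND calls higher in Q7 were 10 with a read minimum of 40, 9 with a −log10 q of at least 5 and 12 with an assumed spread (dispersion 0.05, normal approximation of the log ratio). JUND calls higher in Q111 fell from 4 to 0 with the read minimum of 40 and to 0 with the q limit, under both of which fewer events are tested. FRA2 calls higher in Q111 were 3 with the assumed spread, against 6. With the q limit 20 of 34 SOX2 events remain. With bins of 1 Mb, FRA2 reads were higher in Q7 in 3 of 5 bins and JUND reads in 4 of 5, and with a distance limit of 50 bp the FRA2 events near SOX2 were 13, against 20. Neither summed ratio of FRA2 or JUND reads over the stretch changed direction under the alternatives run. Of 130 values for the 26 named FRA2 and JUND events, 122 kept their call, 7 gained one, and 1, JUND at 90009638, changed sign without a call (-0.21 with control scaling). Reads in events, not library sizes, are the only depth known, and events near 20 reads limit what can be called.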
